A study of Mus musculus with 9 samples.

Results

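The genes described here are 35 genes of the cell cycle and of mitosis, chosen by name for what they do and read from the deposited FPKM table by their symbol. They are 35 of the 54532 genes in that table. FPKM is the number of fragments scaled to the length of the gene and the depth of the library, so levels can be compared between genes. The samples were skin biopsies from wild-type mice, sequenced as 9 libraries of total RNA. The 3 control libraries came from healthy mice, 3 libraries came from mice given bleomycin, and 3 came from mice given bleomycin together with topical nitrate. Bleomycin is an antitumour antibiotic that cuts DNA and is used in mice to produce skin fibrosis, and the series title presents the mice as a model of systemic sclerosis. Both treated groups therefore share the bleomycin, and nitrate alone was not among the groups. The sources used here do not state dose, treatment time, strain, sex, age or how many animals gave the biopsies. The p-values therefore describe the spread from library to library, which may be technical. The question posed by the design is how nitrate alters gene expression in bleomycin-treated skin.

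The cell cycle is driven by cyclins, which bind and activate cyclin-dependent kinases. As a cell commits to division, E2F factors switch on the genes of DNA replication. Later, the transcription factors B-Myb (Mybl2) and FoxM1 switch on the genes that build the spindle and divide the chromosomes. In skin, dividing cells are found mainly in the basal layer of the epidermis and in the matrix of growing hair follicles, and immune cells and fibroblasts can also divide. Transcripts of most of these genes are low in resting cells, so together they are commonly read as a proliferation signature.

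All 35 genes passed the filter for testing, which asked for at least 1 FPKM in at least 3 of the 9 libraries and left 14645 genes. Of the 35 genes, 29 were at 1 FPKM or more in all 9 libraries. Single values ran from 0.601 FPKM (Bub1, control 2) to 47.9 FPKM (Pcna, nitrate 3). The reads recovered behind a value ran from 33 to 5159, out of 15804050 to 18352592 per library. Epidermal markers were present in every library, with a mean log2(FPKM + 1) of 6.07 to 6.94 over 8 basal epidermis genes. Skeletal muscle genes were also present in every library.

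Promoter windows from RefSeq (build GRCm38.p6, 250 bases before to 50 bases after the start) were found for 29 of the 35 genes. They were searched on both strands for the elements through which these genes are known to be controlled. The CHR element (TTTGAA or TTCGAA), which binds the MuvB complexes with B-Myb or FoxM1, was in 17 of the 29 windows (58.6%) and in 19.23% of all 32851 windows. The CCAAT box (CCAAT), bound by NF-Y, was in 24 windows (82.8%) against 37.41% of all windows. Both elements together were in 17 windows (58.6%) against 7.52%. An E2F word (TTTCCCGC, TTTCGCGC, TTTGCCGC or TTTGGCGC) was in 4 windows (13.8%) against 2.26%, and those 4 belonged to Cdk1, Mcm3, Mcm5 and Mcm6. None of these letters was found in the windows of Birc5, Ccne1, Mybl2, Nusap1 and Tyms. A match is only a stretch of letters and does not show that a factor was bound.

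The windows of 6 genes from different functional classes are printed 5′ to 3′ on the strand of the gene. Each gene had the smallest p of limma for bleomycin minus control among the genes of its class with a window. The windows of Aurka, Cdc20 and Cdk1 hold both CHR and CCAAT letters, and those of Nusap1, Ccne1 and Mcm3 hold no CHR. Capitals mark any match to the 3 elements. Aurka lies at chr2:172370521-172370820 (minus strand) and Cdc20 at chr4:118437294-118437593 (minus strand). Cdk1 lies at chr10:69352863-69353162 (minus strand) and holds all 3 elements. Nusap1 lies at chr2:119618048-119618347 (plus strand) and Ccne1 at chr7:38107441-38107740 (minus strand). Mcm3 lies at chr1:20820263-20820562 (minus strand) and holds CCAAT boxes and E2F words without a CHR.
Aurka: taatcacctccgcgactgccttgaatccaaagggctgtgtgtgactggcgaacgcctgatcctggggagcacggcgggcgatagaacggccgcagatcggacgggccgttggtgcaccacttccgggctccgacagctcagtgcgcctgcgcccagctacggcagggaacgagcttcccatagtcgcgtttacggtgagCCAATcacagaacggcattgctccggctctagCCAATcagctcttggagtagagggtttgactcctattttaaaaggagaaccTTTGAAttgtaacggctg
Cdc20: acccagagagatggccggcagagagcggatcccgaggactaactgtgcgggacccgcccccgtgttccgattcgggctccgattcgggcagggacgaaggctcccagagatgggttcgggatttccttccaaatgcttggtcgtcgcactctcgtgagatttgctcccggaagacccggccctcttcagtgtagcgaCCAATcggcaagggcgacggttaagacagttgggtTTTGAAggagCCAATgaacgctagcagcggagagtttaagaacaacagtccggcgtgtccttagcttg
Cdk1: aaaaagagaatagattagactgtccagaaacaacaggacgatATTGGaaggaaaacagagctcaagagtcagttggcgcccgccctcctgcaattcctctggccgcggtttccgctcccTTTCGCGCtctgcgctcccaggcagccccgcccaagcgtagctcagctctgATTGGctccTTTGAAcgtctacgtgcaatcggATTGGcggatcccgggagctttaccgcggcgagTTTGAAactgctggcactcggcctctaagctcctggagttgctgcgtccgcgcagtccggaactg
Nusap1: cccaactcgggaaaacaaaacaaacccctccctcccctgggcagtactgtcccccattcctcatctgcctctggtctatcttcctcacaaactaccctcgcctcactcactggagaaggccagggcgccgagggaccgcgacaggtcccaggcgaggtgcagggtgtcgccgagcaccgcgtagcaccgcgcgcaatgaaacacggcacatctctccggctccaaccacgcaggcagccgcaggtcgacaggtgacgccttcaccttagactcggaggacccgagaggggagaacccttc
Ccne1: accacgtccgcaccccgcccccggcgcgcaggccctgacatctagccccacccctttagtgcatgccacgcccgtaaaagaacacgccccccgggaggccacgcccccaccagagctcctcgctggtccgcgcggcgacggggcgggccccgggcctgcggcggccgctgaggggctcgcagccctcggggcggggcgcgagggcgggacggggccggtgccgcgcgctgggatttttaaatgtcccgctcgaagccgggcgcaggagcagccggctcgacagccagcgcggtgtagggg
Mcm3: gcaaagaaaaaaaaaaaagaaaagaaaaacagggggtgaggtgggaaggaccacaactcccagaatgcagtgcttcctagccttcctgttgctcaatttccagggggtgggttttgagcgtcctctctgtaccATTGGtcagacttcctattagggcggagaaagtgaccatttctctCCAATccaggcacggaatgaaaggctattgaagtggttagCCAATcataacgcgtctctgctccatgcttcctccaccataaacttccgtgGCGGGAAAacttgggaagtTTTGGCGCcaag
In Aurka the CCAAT boxes lay 51 and 19 bases before the start and the CHR 33 bases after it. In Cdc20 the CHR lay 18 bases before the start, between CCAAT boxes at 53 and 8 bases before it.

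The 35 genes differed between libraries together, and the libraries of 1 group differed widely. The mean log2(FPKM + 1) over the 35 genes was 2.31, 1.68 and 1.90 in controls 1, 2 and 3. It was 2.14, 2.90 and 2.70 in bleomycin libraries 1, 2 and 3, and 2.71, 2.22 and 3.26 in nitrate libraries 1, 2 and 3. The mean of every treated library except bleomycin 1 and nitrate 2 was therefore above that of every control library. Control 2 was the lowest of the 9 libraries for 28 of the 35 genes, control 3 for 6 genes and bleomycin 1 for Tyms. Nitrate 3 was the highest library for 32 genes, bleomycin 2 for Ccne1 and Mcm3, and bleomycin 3 for Ccne2. Bleomycin 1 was below both other bleomycin libraries for all 35 genes and below control 1 for 28. Nitrate 2 was below nitrate 3 for all 35 genes and below nitrate 1 for 33. In biopsies, fewer cells of a type and less RNA per cell cannot be told apart.

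**Figure D1:**
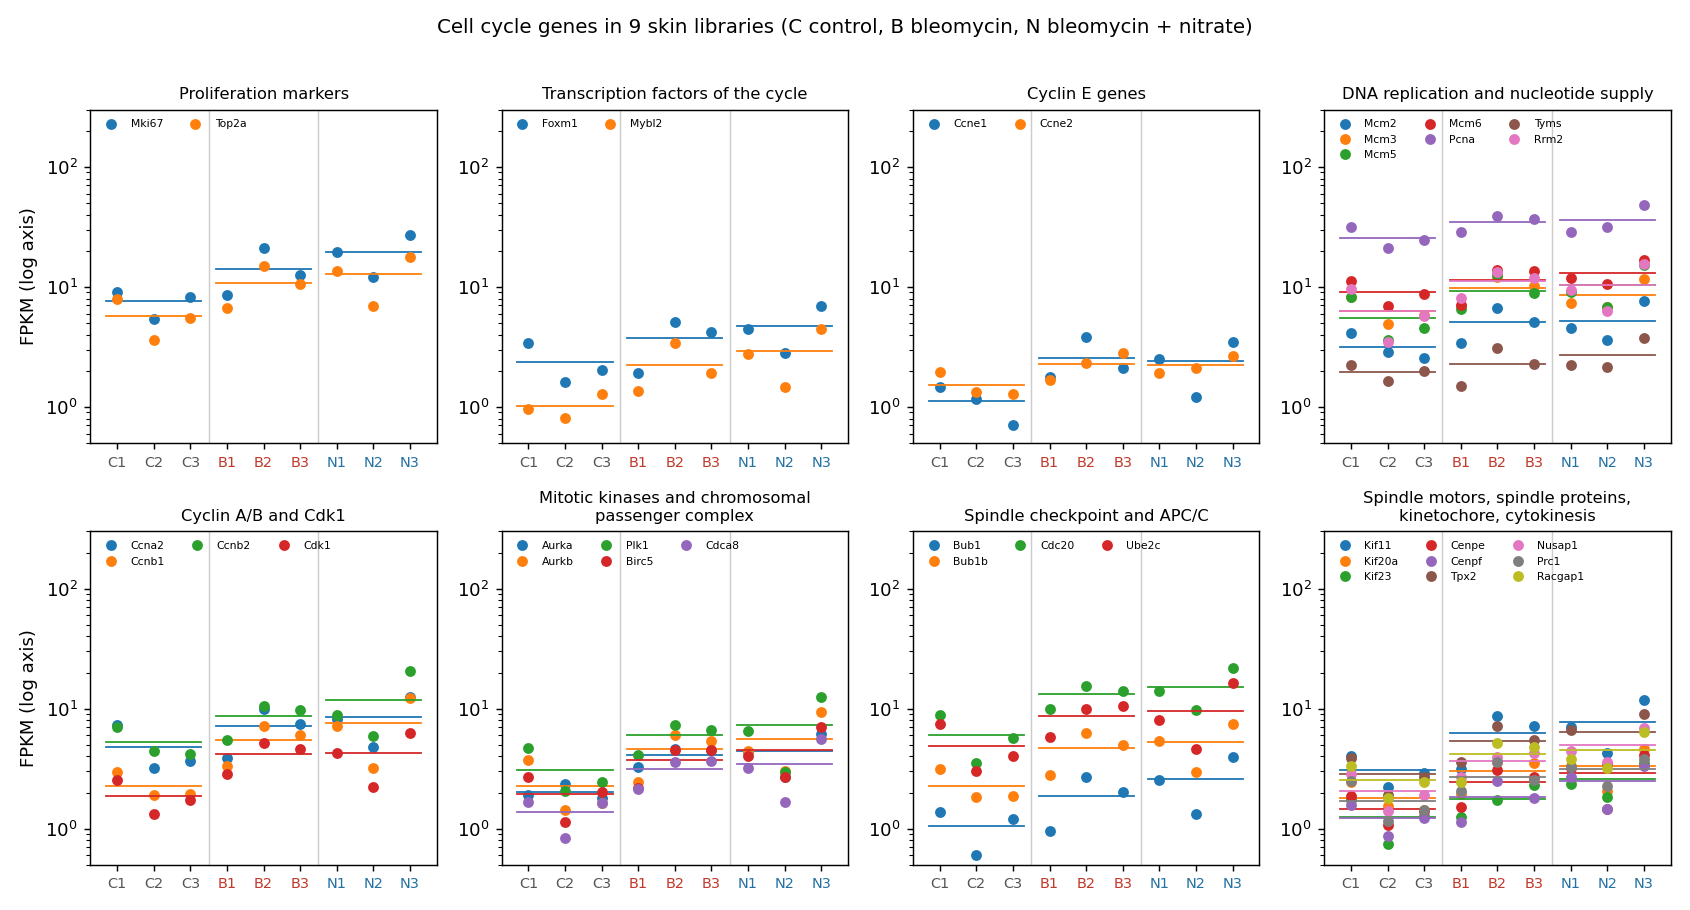
Level of each of the 35 genes (FPKM, log axis) in the 9 libraries, in 8 panels by functional class; C, B and N stand for control, bleomycin and bleomycin with nitrate, dots are libraries and lines are group means. Control 2 is the lowest point for 28 genes and nitrate 3 the highest for 32.

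The span between the highest and the lowest library, as a ratio of FPKM, ran from 2.21 for Ccne2 to 6.66 for Cdca8 with a median of 4.66. It was narrowest for the replication and nucleotide supply genes, with a class median of 2.54. It was widest for the mitotic kinases and chromosomal passenger genes, with a class median of 6.15. Within a group, the median ratio of the highest to the lowest library was 1.90 in controls, 1.96 after bleomycin and 2.49 after bleomycin with nitrate.

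In bleomycin skin, none of the 35 genes passed the test against control skin, although every estimate lay above 0. The median difference was 0.64 on the log2(FPKM + 1) scale, where the median of all genes tested was 0.01 and 51.6% of all genes had an estimate above 0. With limma, 0 of the 35 genes were called at an adjusted p under 0.05, where 8.43% of all genes tested were called (4.74% higher and 3.69% lower). The smallest adjusted p of limma among the 35 was 0.0835, for Aurka. At an unadjusted p under 0.05, 8 of the 35 were higher (22.9%), where 14% of all genes were. In 7 of the 35 (20%) all bleomycin libraries lay above all control libraries, which is near the 18.4% found over all genes: these were Mybl2, Ccne1, Ccnb1, Cdk1, Aurka, Cdca8 and Cdc20. The count was also 0 with voom on the recovered reads, and it was 1 (Aurka) when only the groups compared were fitted (adjusted p of limma 0.0319). Aurka was likewise called without nitrate 2 (0.0326) and without nitrate 3 (0.0420).

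In skin given bleomycin and nitrate, again none of the 35 genes passed the test against control skin and all estimates lay above 0. The median difference was 0.78, where all genes had a median of 0.02 and 51.9% lay above 0. With limma, 0 of the 35 were called, where 8.53% of all genes were (3.63% higher and 4.9% lower). The smallest adjusted p was 0.0515, for Nusap1. At an unadjusted p under 0.05, 19 of the 35 were higher (54.3%), where 15.4% of all genes were, and 0 were lower, where 16% of all genes were. In 9 of the 35 (25.7%) all nitrate libraries lay above all controls, against 17.3% over all genes: Mki67, Mybl2, Ccnb1, Aurka, Birc5, Cdc20, Kif11, Kif23 and Nusap1. With voom the count was also 0. Without nitrate 2, limma called 15 of the 35 (42.9%), where 19.68% of all genes were then called. The comparisons against control share the same 3 control libraries.

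**Figure D2:**
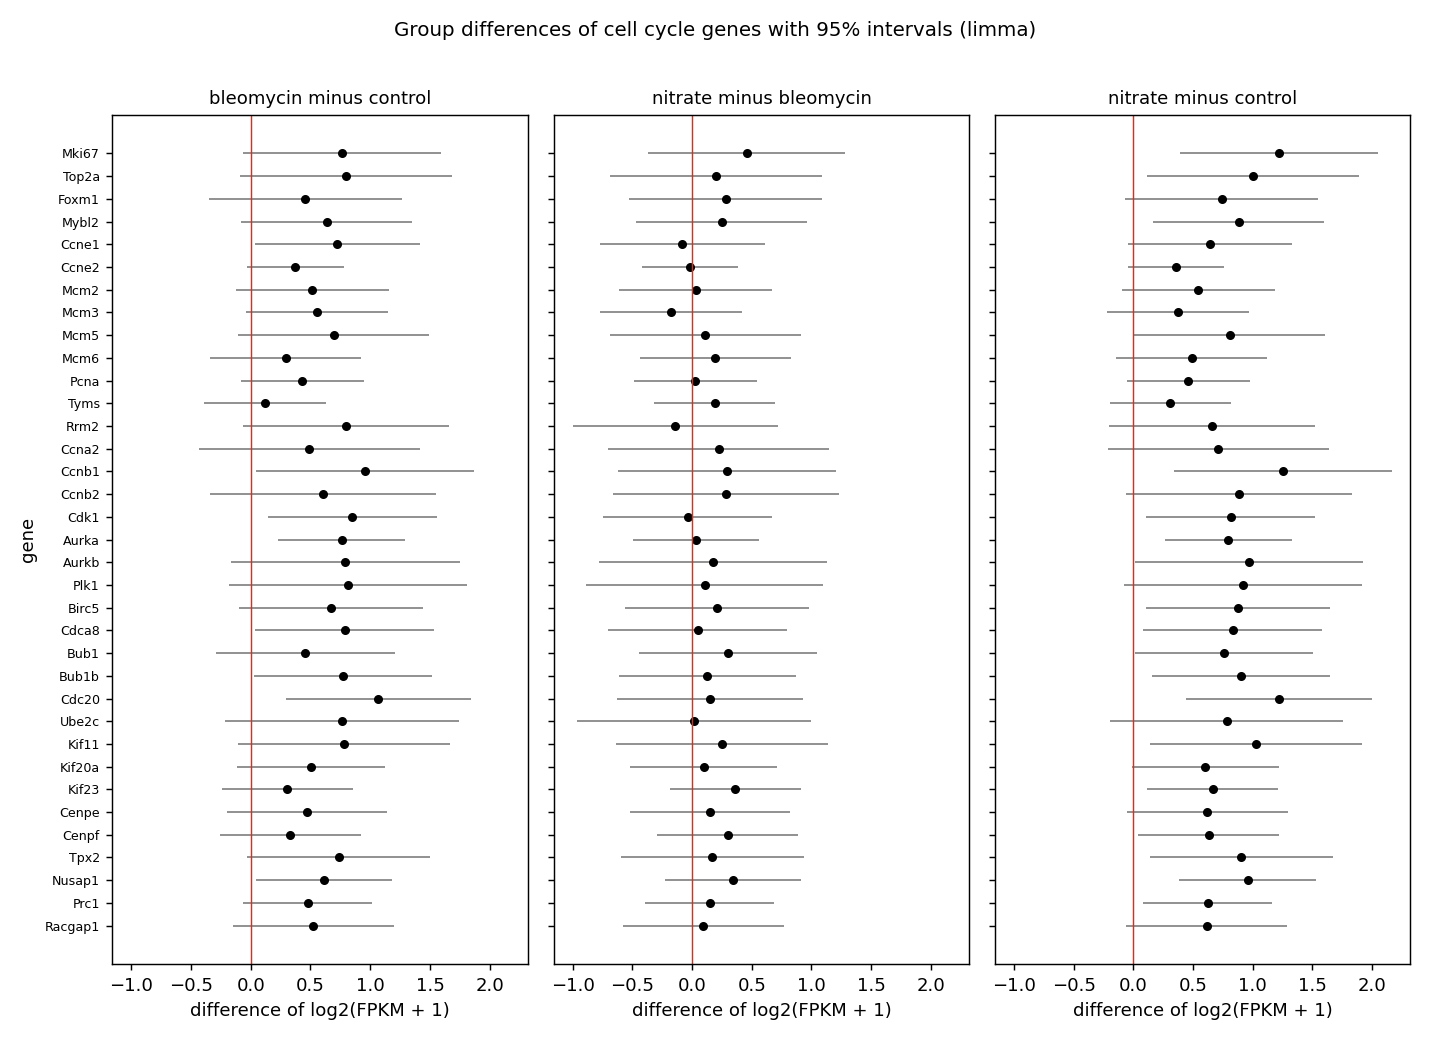
Difference in log2(FPKM + 1) for the 35 genes in 3 panels, bleomycin minus control, bleomycin with nitrate minus bleomycin, and bleomycin with nitrate minus control; points are limma estimates and bars their 95% intervals (3 libraries a group). All points against control lie right of 0, and 30 of the 35 do between the treated groups.

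Mki67 encodes Ki-67, the usual histological marker of cycling cells (ENSMUSG00000031004, mm10 chromosome 7, 135689784 to 135716361). It was at 9.13, 5.36 and 8.23 FPKM in controls 1 to 3, at 8.60, 21.2 and 12.6 after bleomycin and at 19.4, 12.2 and 26.9 after bleomycin with nitrate. Bleomycin 1 fell within the control range, and every nitrate library was above every control. The difference on the log2(FPKM + 1) scale was 0.76 ± 0.36 (SE, n = 3 a group, adjusted p of limma 0.220) for bleomycin minus control. It was 1.22 ± 0.36 (adjusted p 0.0686) for nitrate minus control. Top2a, the topoisomerase that untangles sister chromatids, was at 7.91, 3.64 and 5.48 FPKM in controls, 6.67, 15.1 and 10.5 after bleomycin and 13.4, 6.93 and 17.9 with nitrate. Bleomycin 1 and nitrate 2 were both below control 1. Its differences from control were 0.80 ± 0.39 (adjusted p of limma 0.229) and 1.01 ± 0.39 (0.124).

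The transcription factors had the same low libraries. Mybl2 (B-Myb), a target of E2F that then drives late genes, was at 0.960, 0.809 and 1.28 FPKM in controls, 1.36, 3.39 and 1.92 after bleomycin and 2.74, 1.47 and 4.48 with nitrate. Both treated groups lay above the controls without overlap, with differences of 0.64 ± 0.31 (adjusted p of limma 0.236) and 0.88 ± 0.31 (0.103). Foxm1, which drives the genes of mitotic entry, was at 3.43, 1.62 and 2.04 FPKM in controls, 1.91, 5.09 and 4.17 after bleomycin and 4.43, 2.80 and 6.96 with nitrate. Each treated group overlapped the controls, and the bleomycin difference was 0.46 ± 0.36 (adjusted p of limma 0.440).

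Among the genes of the start of S phase, the cyclin E genes activate Cdk2. Ccne1 was at 1.47, 1.16 and 0.713 FPKM in controls, 1.77, 3.79 and 2.11 after bleomycin and 2.52, 1.21 and 3.49 with nitrate. All bleomycin libraries were above all controls, whereas nitrate 2 was below control 1, and the bleomycin difference was 0.72 ± 0.30 (adjusted p of limma 0.167). Ccne2 was at 1.95, 1.33 and 1.28 FPKM in controls, 1.67, 2.33 and 2.84 after bleomycin and 1.92, 2.09 and 2.65 with nitrate. It had the narrowest span of the 35 genes, and a bleomycin difference of 0.37 ± 0.18 (adjusted p of limma 0.220).

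The replication genes had the smallest differences in skin given bleomycin and nitrate, with a class median of 0.49 against control, beside 0.52 for bleomycin alone. Mcm2, Mcm3, Mcm5 and Mcm6 encode subunits of the helicase that opens DNA. Mcm3 was at 8.28, 4.88 and 5.81 FPKM in controls, 6.98, 12.1 and 10.2 after bleomycin and 7.28, 6.81 and 11.6 with nitrate. Bleomycin 1, nitrate 1 and nitrate 2 were all below control 1, and the bleomycin difference was 0.55 ± 0.26 (adjusted p of limma 0.218). Rrm2, the subunit of ribonucleotide reductase that is made in S phase, was at 9.65, 3.46 and 5.75 FPKM in controls, 8.06, 13.4 and 11.9 after bleomycin and 9.48, 6.30 and 15.4 with nitrate. Its bleomycin difference was 0.80 ± 0.38 (adjusted p of limma 0.218). Pcna, the sliding clamp of DNA polymerase, had the highest level of the 35 genes in every library, at 31.5, 21.01 and 24.5 FPKM in controls, 28.5, 38.9 and 37.1 after bleomycin and 28.8, 31.5 and 47.9 with nitrate. Its lowest treated library in each group lay below control 1, and its differences from control were 0.43 ± 0.23 for bleomycin (adjusted p of limma 0.260) and 0.46 ± 0.23 with nitrate (0.198). Tyms, which makes thymidylate, was at 2.24, 1.65 and 1.99 FPKM in controls, 1.48, 3.08 and 2.27 after bleomycin and 2.26, 2.17 and 3.75 with nitrate. Its bleomycin difference, 0.12 ± 0.22 (adjusted p of limma 0.762), was the smallest of the 35.

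The cyclins of mitosis and Cdk1 form the kinase that starts mitosis. Ccnb1 (cyclin B1) was at 2.95, 1.90 and 1.96 FPKM in controls, 3.36, 7.19 and 5.997 after bleomycin and 7.21, 3.22 and 12.2 with nitrate. Both treated groups lay above the controls without overlap, with differences of 0.96 ± 0.40 (adjusted p of limma 0.167) and 1.25 ± 0.40 (0.0809). Cdk1, whose window above holds CHR, CCAAT and E2F letters, was at 2.55, 1.34 and 1.73 FPKM in controls, 2.85, 5.15 and 4.60 after bleomycin and 4.24, 2.25 and 6.23 with nitrate. The bleomycin libraries were above the controls and nitrate 2 was below control 1. The bleomycin difference was 0.85 ± 0.31 (adjusted p of limma 0.126). Ccna2 and Ccnb2 had the same low libraries, from 3.23 FPKM in control 2 to 12.54 in nitrate 3 for Ccna2 and from 4.21 in control 3 to 20.6 in nitrate 3 for Ccnb2.

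Aurka, the kinase of the spindle poles (mm10 chromosome 2, 172356190 to 172370535), had the smallest adjusted p of the 35 genes against control after bleomycin. It was at 1.91, 2.35 and 1.80 FPKM in controls, 3.25, 4.63 and 4.55 after bleomycin and 4.35, 2.72 and 6.15 with nitrate. Every treated library was above every control, and the controls lay close together. The differences were 0.76 ± 0.23 (adjusted p of limma 0.0835) and 0.79 ± 0.23 (0.0670). Cdca8 and Birc5 (survivin) are subunits of the chromosomal passenger complex, which holds Aurora B at centromeres. Cdca8 was at 1.68, 0.839 and 1.64 FPKM in controls, 2.14, 3.58 and 3.64 after bleomycin and 3.21, 1.66 and 5.58 with nitrate. Only nitrate 2 among its treated libraries fell within the control range. Its bleomycin difference was 0.79 ± 0.33 (adjusted p of limma 0.168), against 0.67 ± 0.34 (0.243) for Birc5. Birc5 was at 2.69, 1.14 and 2.03 FPKM in controls, 2.20, 4.497 and 4.5003 after bleomycin and 4.004, 2.71 and 6.98 with nitrate, and nitrate 2 was barely above control 1. The kinases Aurkb and Plk1 ran from 1.43 FPKM to 9.33 and from 2.06 to 12.6, each from control 2 to nitrate 3.

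Cdc20, which activates the anaphase-promoting complex and so releases the chromatids (mm10 chromosome 4, 118432901 to 118437352), had the largest difference from control of the 35 genes after bleomycin alone. It was at 8.79, 3.50 and 5.70 FPKM in controls, 9.95, 15.5 and 14.0 after bleomycin and 14.2, 9.85 and 21.7 with nitrate. Every treated library was above every control, although bleomycin 1 and nitrate 2 were only a little above control 1. The differences were 1.07 ± 0.34 (adjusted p of limma 0.0917) and 1.22 ± 0.34 (0.0595). The checkpoint kinase Bub1 and its relative Bub1b hold cells back until chromosomes are attached. Bub1b was at 3.12, 1.82 and 1.86 FPKM in controls, 2.83, 6.25 and 4.99 after bleomycin and 5.39, 2.99 and 7.499 with nitrate, so both treated groups overlapped control 1. Its differences were 0.77 ± 0.33 (adjusted p of limma 0.171) and 0.90 ± 0.33 (0.107). Bub1 was at 1.38, 0.601 and 1.202 FPKM in controls, 0.958, 2.69 and 2.01 after bleomycin and 2.53, 1.32 and 3.97 with nitrate. It had a bleomycin difference of 0.46 ± 0.33 (adjusted p of limma 0.402), and bleomycin 1 was below controls 1 and 3.

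The spindle and cytokinesis genes include Nusap1, which bundles spindle microtubules, Tpx2, which activates Aurora A, and the motor Kif23, which acts at the midbody. Nusap1 (mm10 chromosome 2, 119618298 to 119651244) was at 2.84, 1.41 and 1.93 FPKM in controls, 2.71, 3.95 and 4.29 after bleomycin and 4.48, 3.58 and 6.88 with nitrate. All nitrate libraries were above all controls, and bleomycin 1 was just below control 1. The differences were 0.61 ± 0.25 (adjusted p of limma 0.160) for bleomycin and 0.96 ± 0.25 (0.0515) with nitrate. Tpx2 was at 3.92, 1.91 and 2.69 FPKM in controls, 3.63, 7.12 and 5.48 after bleomycin and 6.70, 3.45 and 9.10 with nitrate. Its treated groups each had 1 library below control 1, and its differences were 0.74 ± 0.34 (adjusted p of limma 0.204) and 0.90 ± 0.34 (0.114). Kif23 was at 1.73, 0.745 and 1.27 FPKM in controls, 1.24, 1.75 and 2.32 after bleomycin and 2.35, 1.84 and 3.55 with nitrate. Its difference was 0.31 ± 0.24 (adjusted p of limma 0.447) for bleomycin and 0.67 ± 0.24 (0.107) with nitrate, and only the nitrate libraries were all above the controls. The motors Kif11 and Kif20a, the kinetochore proteins Cenpe and Cenpf, and Prc1 and Racgap1 of the dividing midzone had control 2 or control 3 as the lowest library and nitrate 3 as the highest.

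Adding nitrate to bleomycin gave no difference that passed the test in any of the 35 genes. The median difference was 0.15, where all genes had a median of -0.00, and 30 of the 35 estimates lay above 0 (85.7%), where 49.6% of all genes did. With limma, 0 of the 35 were called, where 0% of all genes tested were called. At an unadjusted p under 0.05 the count was 0 as well, where 7.48% of all genes were higher and 10.4% lower, and voom also called 0. The nitrate and bleomycin libraries overlapped for all 35 genes, where 9.4% of all genes lay above and 11.8% below without overlap. The smallest adjusted p of limma was 0.466. All 35 of the 95% intervals included 0. The narrowest was that of Ccne2, from -0.42 to 0.39, and the widest that of Plk1, from -0.89 to 1.10. The lowest bound of any gene was -0.9999 (Rrm2) and the highest 1.28 (Mki67).

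Kif23 had the nitrate minus bleomycin difference with the smallest p among the 35 genes, 0.36 with a 95% interval of -0.19 to 0.91 (adjusted p of limma 0.466). Mki67 had 0.46 (-0.37 to 1.28, adjusted p 0.547) and Ccnb1 0.29 (-0.62 to 1.20, 0.744). Bub1 had 0.30 (-0.45 to 1.05), Foxm1 0.28 (-0.53 to 1.09) and Birc5 0.21 (-0.57 to 0.98). Tyms had 0.19 (-0.32 to 0.70). Ccne1 was among the 5 genes with an estimate below 0, at -0.08 (-0.77 to 0.61, adjusted p of limma 0.917). All of these intervals include 0. Without nitrate 1 and nitrate 3 together, an alternative chosen after seeing the data, the median over the 35 genes was -0.37 and 1 of the 35 estimates lay above 0. Leaving out single libraries gave medians from -0.11 to 0.42. The estimates above 0 then numbered 9 of the 35 without nitrate 3, 10 without bleomycin 1 and 34 without nitrate 2. The sign of the median thus rested on single libraries.

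Markers of other tissues and cell types differed between the libraries as well. The mean log2(FPKM + 1) of 10 skeletal muscle genes was 9.79, 10.24 and 9.63 in controls 1 to 3, 9.59, 7.41 and 8.56 after bleomycin and 7.36, 9.02 and 7.004 with nitrate. Bleomycin 1 and nitrate 2, the libraries with the lowest cycle gene levels of their groups, thus had the highest muscle levels of their groups. Nitrate 3, with the highest cycle gene level of all, had the lowest muscle level of all. Control 2 had the highest muscle level and the lowest cycle gene level of the controls. Control 3 had the lowest muscle level of the controls, whereas control 1 had their highest cycle gene level. Summed muscle FPKM ran from 14163 to 20717 in controls, 2980 to 13036 after bleomycin and 2271 to 10302 with nitrate, with no gene of the list at 0. Against control, 0 of the 10 muscle genes were called after bleomycin, where 3.69% of all genes fell. With nitrate 2 fell, where 4.9% of all genes did. The median differences from control were -1.33 after bleomycin and -1.96 with nitrate. For 8 of the 10 (80%) all treated libraries lay below all controls in each comparison, where 17.3% and 17.5% of all genes did. At an unadjusted p under 0.05 by limma, 2 and 8 were lower, where 12.8% and 16% of all genes were.

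Hair follicle genes matched the order of the 35 genes in part. The mean over the 2 hair lists (25 genes of the hair shaft and inner root sheath, 19 genes of the matrix and its regulators) was 0.69, 2.92 and 4.56 in controls, 1.37, 4.35 and 5.30 after bleomycin and 6.11, 4.49 and 6.73 with nitrate. As for the 35 genes, bleomycin 1 and nitrate 2 were the lowest libraries of their groups, nitrate 3 was the highest of all, and the nitrate libraries had the same order. The bleomycin libraries did not: bleomycin 3 had the highest hair value of its group, and bleomycin 2 the highest cycle gene level. Nor did the controls: control 1 had the lowest hair value of all, with 15 of the 25 shaft genes at 0, and the highest cycle gene level of the controls. Summed FPKM of the shaft genes ran from 4.56 to 3846 in controls, 76.4 to 6657 after bleomycin and 3100 to 21023 with nitrate. Of the shaft genes, 1 of 25 rose after bleomycin, near the 4.74% of all genes, and 0 were called with nitrate by limma or voom. At an unadjusted p under 0.05 by limma, 5 of the 25 (20%) were higher with nitrate, where 15.4% of all genes were. Of the 18 matrix genes tested, 1 rose after bleomycin against control, again near 4.74%. With nitrate 4 rose against control, where 3.63% of all genes did. At an unadjusted p under 0.05 by limma, 2 of the 18 (11.1%) were higher after bleomycin, where 14% of all genes were. With nitrate 16 (88.9%) were, where 15.4% of all genes were. For nitrate minus bleomycin all 18 estimates lay above 0, with a median of 1.08, and 0 were called. There 6 (33.3%) were higher at an unadjusted p under 0.05, where 7.48% of all genes were. The stress epidermis genes had means of 2.12 to 4.15 in controls, 7.56 to 9.68 after bleomycin and 4.59 to 6.503 with nitrate, and all 8 rose after bleomycin. Their highest library was bleomycin 1, which had the lowest cycle gene level of its group. Leukocyte genes had means of 2.65 to 2.99 in controls, 3.64 to 4.03 after bleomycin and 2.31 to 3.28 with nitrate, and 4 of the 12 tested rose after bleomycin, where 4.74% of all genes did. The 8 basal epidermis genes had means of 6.07 to 6.56 in controls, 6.33 to 6.94 after bleomycin and 6.35 to 6.75 with nitrate. Their summed FPKM ran from 1270.1 to 2007.3, 2635.7 to 5665.5 and 2462.5 to 3594.8. Against control, 1 of the 8 rose and 1 fell after bleomycin, where 4.74% and 3.69% of all genes did. With nitrate 0 were called. Voom called 2 higher and 1 lower after bleomycin.

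Fibroblast and endothelial genes were lower in the treated groups. The mean log2(FPKM + 1) of 10 fibroblast genes was 6.90 to 7.41 in controls, 5.90 to 6.45 after bleomycin and 5.97 to 6.56 with nitrate, with no gene at 0. Against control, 4 of the 10 fell after bleomycin (median -1.04, 3.69% of all genes fell) and 4 with nitrate (median -0.82, 4.9%). The mean of 8 endothelial genes was 4.25 to 4.47 in controls, 3.48 to 3.70 after bleomycin and 3.14 to 3.93 with nitrate, again with none at 0. Of these, 2 fell after bleomycin (median -0.60) and 4 with nitrate (median -0.95). The treated libraries did not overlap the controls in the means of either list. The part of the fibroblast, endothelial, epidermal and leukocyte genes in the differences of the 35 genes was not tested.

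With the hair follicle mean as a covariate, the median difference of the 35 genes was 0.55 for bleomycin minus control, -0.05 for nitrate minus bleomycin and 0.48 for nitrate minus control. Of the 35 estimates, 35, 12 and 35 then lay above 0. With the skeletal muscle mean as a covariate, an alternative chosen after seeing the data, the medians were 0.07, -0.15 and -0.11, and 26, 4 and 9 of the 35 estimates lay above 0. In each of these fits 0 of the 35 genes were called. The muscle level differs between the groups as well, so treatment and tissue makeup of the biopsy cannot be told apart in these fits.

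**Figure D3:**
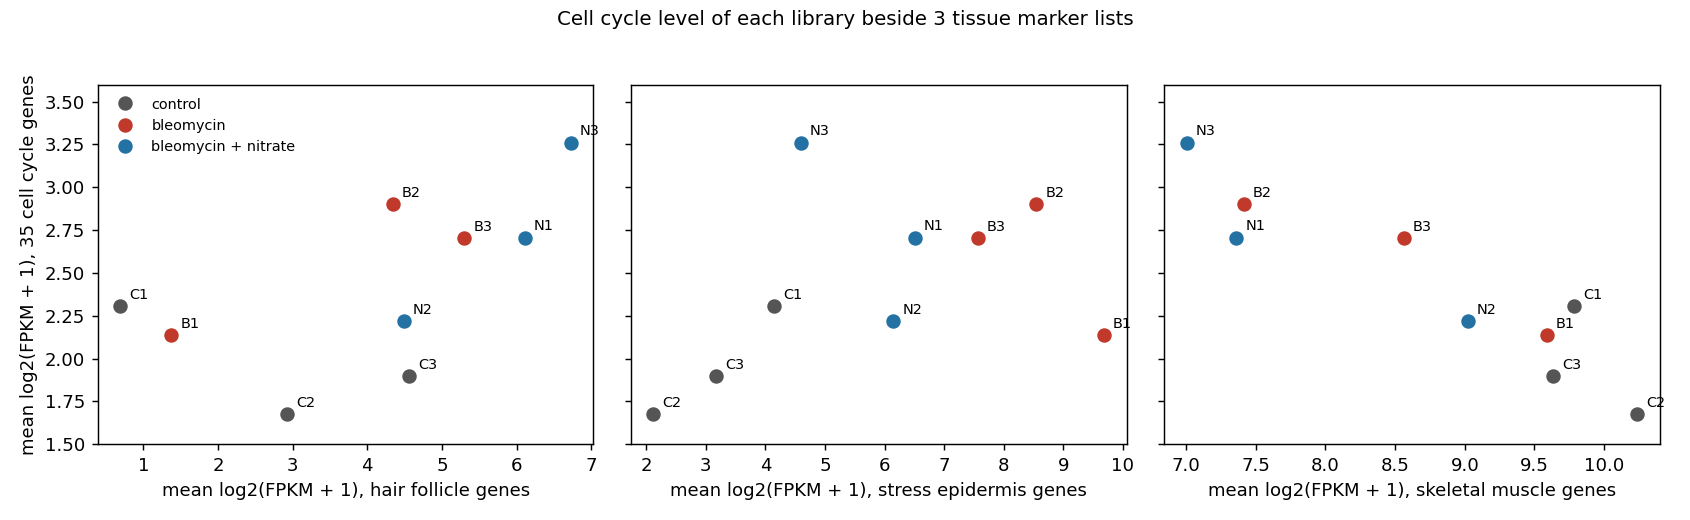
Mean log2(FPKM + 1) of the 35 genes (vertical axis) in the 9 libraries against the list means of hair follicle, stress epidermis and skeletal muscle genes (horizontal axes, log2(FPKM + 1)), coloured by group. The libraries with the lowest muscle means, 7.004 to 7.41, have the highest cycle gene means, 2.71 to 3.26.

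Other genes of the cycle, listed by function, had smaller median differences of the same sign. Of 28 further S phase genes 24 were tested and 0 were called in any comparison, with medians of 0.38 for bleomycin minus control, 0.10 for nitrate minus bleomycin and 0.51 for nitrate minus control. At an unadjusted p under 0.05, limma had 6, 1 and 11 of them higher, where 14%, 7.48% and 15.4% of all genes were, so the 1 of 24 between the treated groups is no more than that share. Voom called 0 in each. Gins1, a subunit of the replicative helicase, had the largest bleomycin difference among them, 0.76 ± 0.20 (adjusted p of limma 0.0562). Of 45 further G2 and mitosis genes 43 were tested and 0 were called, with medians of 0.49, 0.14 and 0.62. At an unadjusted p under 0.05, 4, 0 and 18 of the 43 were higher, so that only the count for nitrate minus control was above the share over all genes. Voom again called 0 in each. Ccnf (cyclin F) had 0.83 after bleomycin (adjusted p of limma 0.113) and Incenp, the scaffold of the passenger complex, had 0.69 (0.114).

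The G1 cyclins, their kinases and the E2F genes gave 0 calls among 14 tested of 15, with medians of 0.36, 0.11 and 0.35. At an unadjusted p under 0.05, 4 of the 14 (28.6%) were higher after bleomycin, where 14% of all genes were. With nitrate against bleomycin 2 were lower (10.4% of all genes), and with nitrate against control 6 were higher and 1 lower (15.4% and 16% of all genes). Voom called 0, 0 and 1, the last being Skp2 with nitrate against control, which limma put at 0.60 (adjusted p 0.0631). Ccnd1 (cyclin D1), which links growth signals to the cycle, was at 22.6, 14.7 and 18.3 FPKM in controls, 31.0, 28.3 and 30.6 after bleomycin and 21.2, 15.6 and 27.2 with nitrate. The bleomycin libraries lay above both other groups, with a difference of 0.69 ± 0.21 from control (adjusted p of limma 0.0827) and of -0.51 for nitrate minus bleomycin (0.254). Ccnd3 (cyclin D3) was at 9.61, 9.36 and 7.498 FPKM in controls, 9.11, 9.01 and 9.98 after bleomycin and 7.63, 4.83 and 4.40 with nitrate. Its nitrate libraries lay below the bleomycin libraries, with a difference of -0.68 ± 0.18 (adjusted p of limma 0.136). Mycn, a transcription factor of the Myc family, was at 12.1 FPKM in nitrate 3 alone and at most 3.48 in the other libraries.

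Inhibitors of the cycle were the only one of these 4 lists in which limma made calls. Of 17 inhibitor genes, 4 rose and 0 fell after bleomycin, where 4.74% of all genes rose and 3.69% fell, although the median was -0.06. With nitrate 1 rose and 1 fell against control, which is near the 3.63% and 4.9% of all genes. Cdkn2b encodes p15Ink4b, which blocks Cdk4 and Cdk6 (mm10 chromosome 4, 89306299 to 89311039). It was at 4.66, 4.41 and 7.1999 FPKM in controls, 17.9, 15.2 and 15.3 after bleomycin and 17.0, 15.7 and 16.9 with nitrate. All 6 treated libraries were above 15 FPKM and every control was below 8, with differences of 1.44 ± 0.16 (adjusted p of limma 0.00435) and 1.48 ± 0.16 (0.00761). Cdkn2a, its neighbour (89274471 to 89294653), encodes p16Ink4a and p19Arf, which a value per gene does not separate. It was at 1.06, 0.457 and 0.687 FPKM in controls, 12.8, 10.5 and 12.9 after bleomycin and 1.26, 18.3 and 14.8 with nitrate. Nitrate 1 stood with the controls and the other treated libraries were far above them. Cdkn2a rose by 2.92 ± 0.69 after bleomycin (adjusted p of limma 0.0385), and with nitrate the difference was 2.36 ± 0.69 (0.0671), or 3.34 (0.00256) without nitrate 1. Voom called 3 of these 4 genes after bleomycin and left out Cdkn2a (adjusted p 0.144).

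Cdkn1a encodes p21, and Btg2 a further antiproliferative protein, and p53 switches on both after DNA damage. Cdkn1a (mm10 chromosome 17, 29090976 to 29100727) was at 76.1, 66.7 and 66.7 FPKM in controls, 168, 93.9 and 160 after bleomycin and 113, 79.6 and 79.2 with nitrate. It rose by 0.96 ± 0.24 after bleomycin (adjusted p of limma 0.0465). Its nitrate minus bleomycin difference was -0.60 ± 0.24 (0.240), and nitrate 1 was above bleomycin 2. Btg2 (mm10 chromosome 1, 134075170 to 134079120) was at 28.5, 26.1 and 31.2 FPKM in controls, 146, 42.0 and 90.5 after bleomycin and 43.8, 44.8 and 37.2 with nitrate. It rose by 1.497 ± 0.37 after bleomycin (adjusted p of limma 0.0451). For both genes bleomycin 1 was the highest library and bleomycin 2 the lowest of its group, whereas bleomycin 1 was the lowest of its group for all 35 cycle genes. Ccng1 (cyclin G1), a p53 target, was at 138, 196 and 146 FPKM in controls, 148, 65.5 and 102 after bleomycin and 62.5, 69.3 and 30.6 with nitrate. It fell by 1.61 on the log2(FPKM + 1) scale with nitrate against control (adjusted p of limma 0.0372). Cdkn1b (p27) was at 12.8 to 14.8 FPKM after bleomycin and 19.3 to 20.8 with nitrate, a difference of 0.52 ± 0.11 (adjusted p of limma 0.102).

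**Figure D4:**
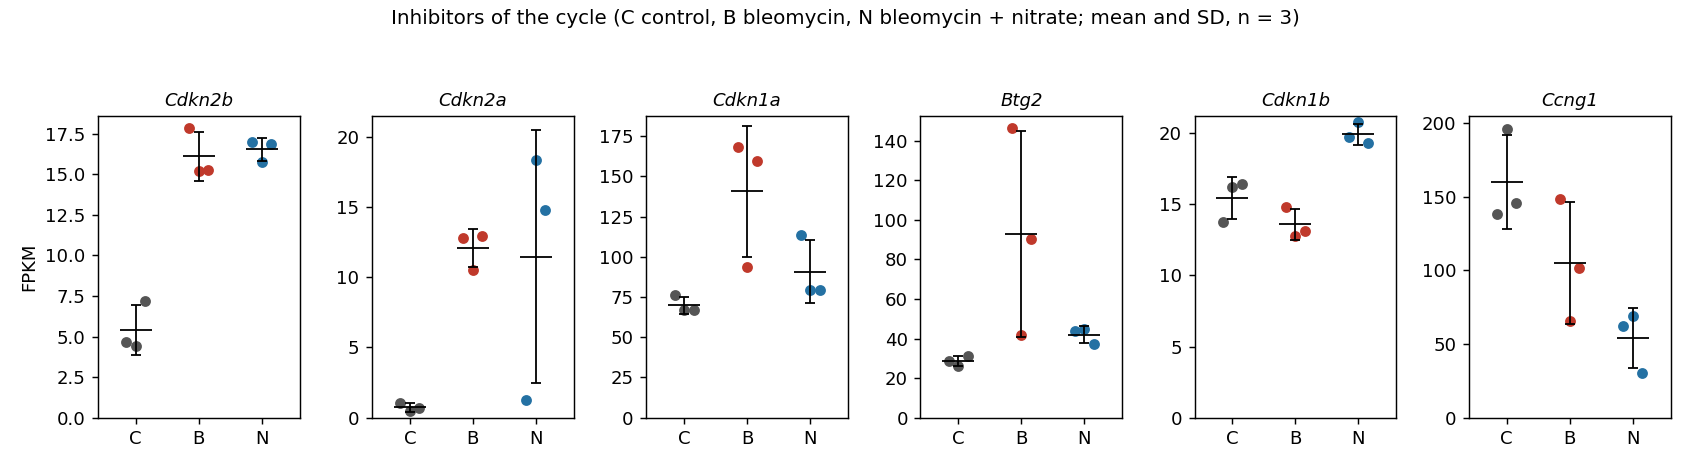
FPKM of 6 inhibitor genes, Cdkn2b, Cdkn2a, Cdkn1a, Btg2, Cdkn1b and Ccng1, in each library (dots), with the mean and SD of each group (n = 3). Cdkn2b is above 15 FPKM in all treated libraries and below 8 in controls, and nitrate 1 is at 1.26 for Cdkn2a.

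The inhibitor calls differed in how far they rested on single libraries and settings. For Cdkn2b after bleomycin, no single library ended the call, and it was lost without control 1 and bleomycin 1 together (adjusted p of limma 0.0510). For Cdkn2b with nitrate the call was lost without that pair (0.0612), with the hair covariate (0.0760) or the muscle covariate (0.113), and without nitrate 1 and 3 together (0.105). For Cdkn2a after bleomycin it was lost without control 1, 2 or 3 (0.0791, 0.133 and 0.0968) and without bleomycin 1, 2 or 3 (0.0973, 0.0879 and 0.113). It was also lost for Cdkn2a with voom (0.144), no filter (0.0852), the hair covariate (0.0526), the muscle covariate (0.1003) and without control 1 and bleomycin 1 together (0.156). For Cdkn1a it was lost without control 1, 2 or 3 (0.0864, 0.148 and 0.119), without bleomycin 1 or 3 (0.120 and 0.145) and without nitrate 3 (0.0527). The call of Cdkn1a also ended with no filter (0.0976), only the groups compared (0.0519), the hair covariate (0.0595), the muscle covariate (0.0805) and without either pair of libraries (0.179 and 0.0518).

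For Btg2 the call was lost without control 1, 2 or 3 (adjusted p of limma 0.101, 0.149 and 0.0968), without bleomycin 1 or 3 (0.0828 and 0.135) and without nitrate 1, 2 or 3 (0.0647, 0.0525 and 0.0551). It also ended for Btg2 with no filter (0.0969), only the groups compared (0.0703), and without either pair of libraries (0.154 and 0.0704). For Ccng1 it was lost without control 1, 2 or 3 (0.0937, 0.136 and 0.0693), without bleomycin 3 (0.0612) and without nitrate 1 or 3 (0.0700 and 0.101). The call of Ccng1 also ended with no filter (0.0862), only the groups compared (0.0579), the hair covariate (0.340) and without either pair of libraries (0.102 and 0.356). With the muscle covariate the difference of Ccng1 was -0.58 (0.610).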

How the data were processed

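Bulk RNA sequencing of mouse skin (9 libraries) was analysed from 1 table of FPKM values that the authors deposited, which also lists the identifier, symbol, position and length of each gene. Per the submitters' processing notes the build was mm10. The sources used here do not name the aligner, the counter or any filter. Multiplied by gene length, 100% of values fell within 0.01 of whole steps of 1 read, which gave recovered reads per gene (15804050 to 18352592 per library). The library size the authors divided by was 0.916 to 1.09 times these reads, and its method is not given in the sources used here. This factor was 0.916 to 0.968 in controls and 0.995 to 1.09 in treated libraries. Mitochondrial reads were 6.61% to 8.02% of the recovered reads in controls and 2.84% to 4.49% in treated libraries. FPKM divides by the library, so a gene's value also moves when other RNA takes a larger share.

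Groups came from the sample titles. Genes with at least 1 FPKM in at least 3 libraries (14645) were fitted on log2(FPKM + 1) with limma 3.58.1 (R 4.3.3), all 3 groups together, with trended empirical Bayes variances and Benjamini-Hochberg adjustment over all genes tested. The pseudocount of 1 makes differences of low genes too small. Calls were made at an adjusted p under 0.05. The 35 genes, the other lists and the promoter motifs were chosen with earlier results of these data known. Values in every library are given for Mki67, Top2a, Foxm1, Ccnb1, Pcna and, in each of 8 functional classes, the 2 genes with the smallest p in bleomycin minus control and the 1 with the smallest p in nitrate minus bleomycin. Other pathway genes were chosen from the 3 with the smallest p in each list and comparison, plus Cdkn1a. The promoters are those of the classes' smallest p, up to 6. Alternatives were a pseudocount of 0.1, no filter, quantile normalization, median-of-ratios scaling, a replicate block, fits of only the groups compared, voom with trimmed-mean scaling on recovered reads, a hair follicle covariate, leaving out libraries and, added after seeing the data, a skeletal muscle covariate and leaving out nitrate 1 and 3 together. The code was tested on simulated data.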

Additional observations from a re-analysis of the deposited data

How the results depend on the processing

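Across 20 alternatives per comparison, the count of the 35 genes called stayed 0 for nitrate minus bleomycin in every one. For bleomycin minus control it was 1 (Aurka) with only the groups compared and 1 without nitrate 1 and 3 together, and 0 to 1 when single libraries were left out. For nitrate minus control it was 0 to 15 when single libraries were left out, 15 without nitrate 2, and 0 otherwise. The counts over all genes moved as well, from 1249 (8.53%) for nitrate minus control. They were 5 (0.03%) with the hair follicle covariate, 18 (0.12%) with the muscle covariate and 45 (0.31%) without control 2. Without nitrate 2, 2882 of all genes (19.68%) were called, beside 42.9% of the 35 genes.

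Whether the replicate numbers in the titles pair the libraries is not stated, and the values below do not settle it. The correlations of same-numbered deviations were 0.52, -0.04 and 0.43 for bleomycin and control, -0.20, -0.39 and 0.34 for nitrate and bleomycin, and 0.01, 0.20 and 0.44 for nitrate and control. In 9 of 18 cases a library correlated best with its own number. With the replicate block, 0, 0 and 0 of the 35 genes were called in the 3 comparisons, beside 1039, 10 and 1067 of all genes, and the block ended the calls of Cdkn2a and Btg2 after bleomycin and of Ccng1 with nitrate (adjusted p of limma 0.0637, 0.0556 and 0.0529) and made 1 for Mycn with nitrate against control (0.0378).

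Some differences changed sign, and they are given here only for the genes and comparisons selected for naming. Over all 35 genes, the muscle covariate left 26 estimates above 0 for bleomycin minus control. It left 9 above 0 for nitrate minus control and 4 for nitrate minus bleomycin. With the muscle covariate, bleomycin minus control was -0.197 for Foxm1, -0.251 for Tyms, -0.184 for Bub1 and -0.0018 for Kif23. Under it, nitrate minus control was -0.169 for Top2a, -0.264 for Foxm1, -0.0759 for Mybl2, -0.172 for Ccne1, -0.255 for Mcm3, -0.260 for Tyms and Rrm2, -0.0657 for Cdk1, -0.0207 for Birc5, -0.0619 for Cdca8, -0.225 for Bub1, -0.0459 for Bub1b and -0.0873 for Tpx2. Nitrate minus bleomycin was then -0.0674 for Foxm1, -0.0095 for Tyms, -0.118 for Ccnb1, -0.107 for Birc5 and -0.0407 for Bub1. Without nitrate 1 and 3 together, which leaves 1 nitrate library assumed to vary like the other groups, nitrate minus bleomycin was -0.115 for Mki67, -0.246 for Foxm1, -0.0191 for Tyms, -0.577 for Ccnb1, -0.307 for Birc5, -0.269 for Bub1, 0.0623 for Pttg1 and -0.0372 for Smc4. Without control 1 and bleomycin 1 together it was -0.0344 for Foxm1 and -0.0550 for Birc5. With the hair covariate it was -0.0207 for Ccnb1 and -0.0560 for Birc5. When single libraries were left out, nitrate minus bleomycin ran from -0.0344 (without bleomycin 1) to 0.545 for Foxm1, from -0.311 to 0.201 (without nitrate 2) for Ccne1, from -0.0969 (without nitrate 3) to 0.725 for Ccnb1 and from -0.0910 (without nitrate 3) to 0.461 for Birc5. Bleomycin minus control ran from -0.0515 (without bleomycin 2) to 0.308 for Tyms. The fits without a library rest on fewer libraries, whereas the covariate fits keep all 9. The cause of the changes of sign was not tested.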
